A study of Mus musculus with 9 samples.

Results

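The genes described here are 7 members of the mouse PYHIN family, also called the Ifi200 genes: Ifi203, Ifi204, Ifi205, Mnda, Mndal, Pyhin1 and Aim2. They were found by symbol among the 24411 genes listed for each mouse, all 7 had a row, and all 7 passed the minimum mean of 10 on the linear scale that left 14867 genes to test. They were chosen because they were high in CUG300 mice given vehicle relative to CUG10 mice, so that difference is given as a description and not as a test. Hippocampal RNA was sequenced from 3 groups of 3 male wild-type C57BL/6J mice. CUG300 mice treated with CWG-cPIP and CUG300 mice given vehicle carried 300 CTG repeats, and CUG10 mice given vehicle carried 10. The repeats lay in the 3′-UTR of Egfp on an AAV9 vector injected into CA1 on both sides, so every group, the CUG10 controls included, received the virus and the injection, and no uninjected mice were in the comparison. CWG-cPIP, a cyclic pyrrole-imidazole polyamide that binds CAG/CTG repeat DNA in its minor groove, was mixed with the virus at 83 μg/kg, and tissue was taken 10 days after gene transfer. By the labels the mice were 10 weeks old, and by the methods they were injected at 9 weeks.

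PYHIN proteins usually join a pyrin domain, which binds other pyrin domains, to one or more HIN domains, which bind DNA. Several of them sense DNA in the cytosol or nucleus or act on transcription, and many of their genes are induced by interferon, the cytokine family that puts cells in an antiviral state. AIM2 binds cytosolic DNA and recruits the adaptor encoded by Pycard and the protease encoded by Casp1 into an inflammasome, and Ifi204 is often taken as the mouse relative of human IFI16. In the brain these genes are best known from microglia and from blood-borne myeloid cells.

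Expression is given as rlog values (regularized logarithm, base 2), in which 1 unit is close to a doubling of the normalised count. The transformation pulls low and variable genes toward their mean, so folds of such genes are understated. The number of reads per mouse is unknown. Values of all genes tested correlated at r = 0.97 to 0.996 between mice of the same group, and no pair of libraries held the same values. Hippocampal neuron markers had mean rlog values of 12.2 to 12.4 in CUG300 mice treated with CWG-cPIP, 11.9 to 12.4 with vehicle and 12.3 to 12.4 in CUG10 mice. In bulk tissue, fewer cells of a type and less RNA per cell cannot be told apart.

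The 7 genes lie on chromosome 1 in one stretch of 681 kb, chr1:173350879-174031810 in GRCm38, the build the authors used. Aim2 and Pyhin1, which RefSeq now calls Ifi209, lie on the plus strand, and Ifi204, Mndal, Mnda (now Ifi211), Ifi203 and Ifi205 follow on the minus strand. The authors' annotation is not stated. In GENCODE, the span of Mndal overlaps that of Ifi203 by 22085 bases and that of Mnda by 16702 bases, on the same strand, while the RefSeq spans of these genes lie apart, so how their reads were divided depends on the annotation used. The genes are also close copies. Of all 100-base words in the longest coding transcript, 56.9% of those of Mnda and 41.5% of those of Ifi205 also occur in a transcript of another gene. The share was 17.9% for Pyhin1, 16.8% for Ifi204, 7.63% for Mndal, 3.31% for Ifi203 and 0% for Aim2. Mnda was the gene that held most of the shared words of Ifi205 and of Ifi204. The counting program, RSEM, divides a read that fits several genes among them by an estimate, so the separate levels of Mnda and Ifi205 are the least certain, and the level of Aim2 is the most separate. The span of Aim2 does overlap that of Cadm3 on the opposite strand. By the methods the libraries were made with a directional kit, but the sources do not say if reads were counted by strand.

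Sequence just before the start sites is shown for the 4 members whose promoter window held GAAA, any 2 bases and GAAA again, the core of the element through which interferon-activated factors bind, because the copies resemble each other there too. Each line gives 30 bases 5′ to 3′ on the gene's own strand, from RefSeq GRCm38.p6, with the matched letters in capitals.
Ifi203: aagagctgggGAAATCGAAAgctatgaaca
Mndal: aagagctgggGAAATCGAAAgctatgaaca
Mnda: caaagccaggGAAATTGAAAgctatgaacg
Ifi205: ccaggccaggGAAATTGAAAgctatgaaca
These stretches are chr1:173942508-173942537 for Ifi203, chr1:173880204-173880233 for Mndal, chr1:173913064-173913093 for Mnda and chr1:174031870-174031899 for Ifi205, all on the minus strand. The capitals begin 35 bases before the start in Ifi203, 36 in Mndal, 37 in Mnda and 134 in Ifi205. Ifi203 and Mndal each have 2 RefSeq start windows, and the stretch shown comes from the second for Ifi203, whose first window lacked the motif, and from the first for Mndal. The stretches of Ifi203 and Mndal had 0 mismatches over 30 bases, those of Mnda and Ifi205 had 3, and those of Mnda and Mndal had 6. A window of 300 bases, 250 before the start and 50 after, was at hand for 6 members, all but Ifi204, and 4 of the 6 held the motif on either strand. Of 27025 genes with a window, 3.99% held it. Pyhin1 and Aim2 matched 7 of its 8 fixed letters at best, and 38.9% of all genes matched at least 7. The second motif searched, TTCNNNGAA, which reads the same on both strands, was in none of the 6 and in 9.55% of all genes. A match is a description of letters and was not tested as a binding site.

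The levels of Mnda, named after the human myeloid cell nuclear differentiation antigen, were 9.36, 7.42 and 10.8 in the 3 CUG300 mice treated with CWG-cPIP (replicates 1, 2 and 3), 10.7, 10.3 and 10.7 in CUG300 mice given vehicle, and 6.14, 7.10 and 6.50 in CUG10 mice. Ifi205, its close copy, had 8.19, 6.12 and 10.1 with CWG-cPIP, 9.96, 9.50 and 9.72 with vehicle, and 5.46, 6.19 and 5.52 in CUG10 mice. In both genes the vehicle-treated CUG300 mice lay close together and above every CUG10 mouse, whereas the treated mice reached from near the CUG10 level to above the highest vehicle-treated mouse. For Ifi205, treated replicate 2 lay just below the highest CUG10 mouse.

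Ifi204, the DNA-binding relative of IFI16, had 9.63, 8.0 and 10.9 in treated CUG300 mice, 10.6, 10.5 and 10.7 in CUG300 mice given vehicle, and 6.73, 7.75 and 7.14 in CUG10 mice. Pyhin1, which carries the name of the family, had 9.15, 7.31 and 10.5 with CWG-cPIP, 9.95, 10.1 and 10.3 with vehicle, and 6.12, 6.92 and 6.55 in CUG10 mice. The order of the 3 treated mice was the same as in Mnda, with replicate 3 highest and replicate 2 lowest.

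Ifi203 had 8.92, 7.22 and 9.94 in treated CUG300 mice, 9.37, 9.79 and 9.82 in CUG300 mice given vehicle, and 6.50, 6.63 and 6.44 in CUG10 mice. Its neighbour Mndal, named for its likeness to Mnda, had 8.70, 6.93 and 9.76 with CWG-cPIP, 9.51, 9.45 and 9.56 with vehicle, and 6.33, 6.68 and 6.46 in CUG10 mice. For these genes all 3 treated mice exceeded every CUG10 mouse, and the highest treated mouse exceeded every vehicle-treated one.

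Aim2, the cytosolic DNA sensor, was the exception in size. Its levels were 6.36, 5.84 and 6.59 in treated CUG300 mice, 6.46, 6.77 and 6.82 in CUG300 mice given vehicle, and 5.74, 6.08 and 5.86 in CUG10 mice. Its vehicle-treated and CUG10 mice did not overlap, but treated replicate 2 lay below 2 of the CUG10 mice and treated replicate 3 lay between the vehicle-treated ones.

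**Figure D1:**
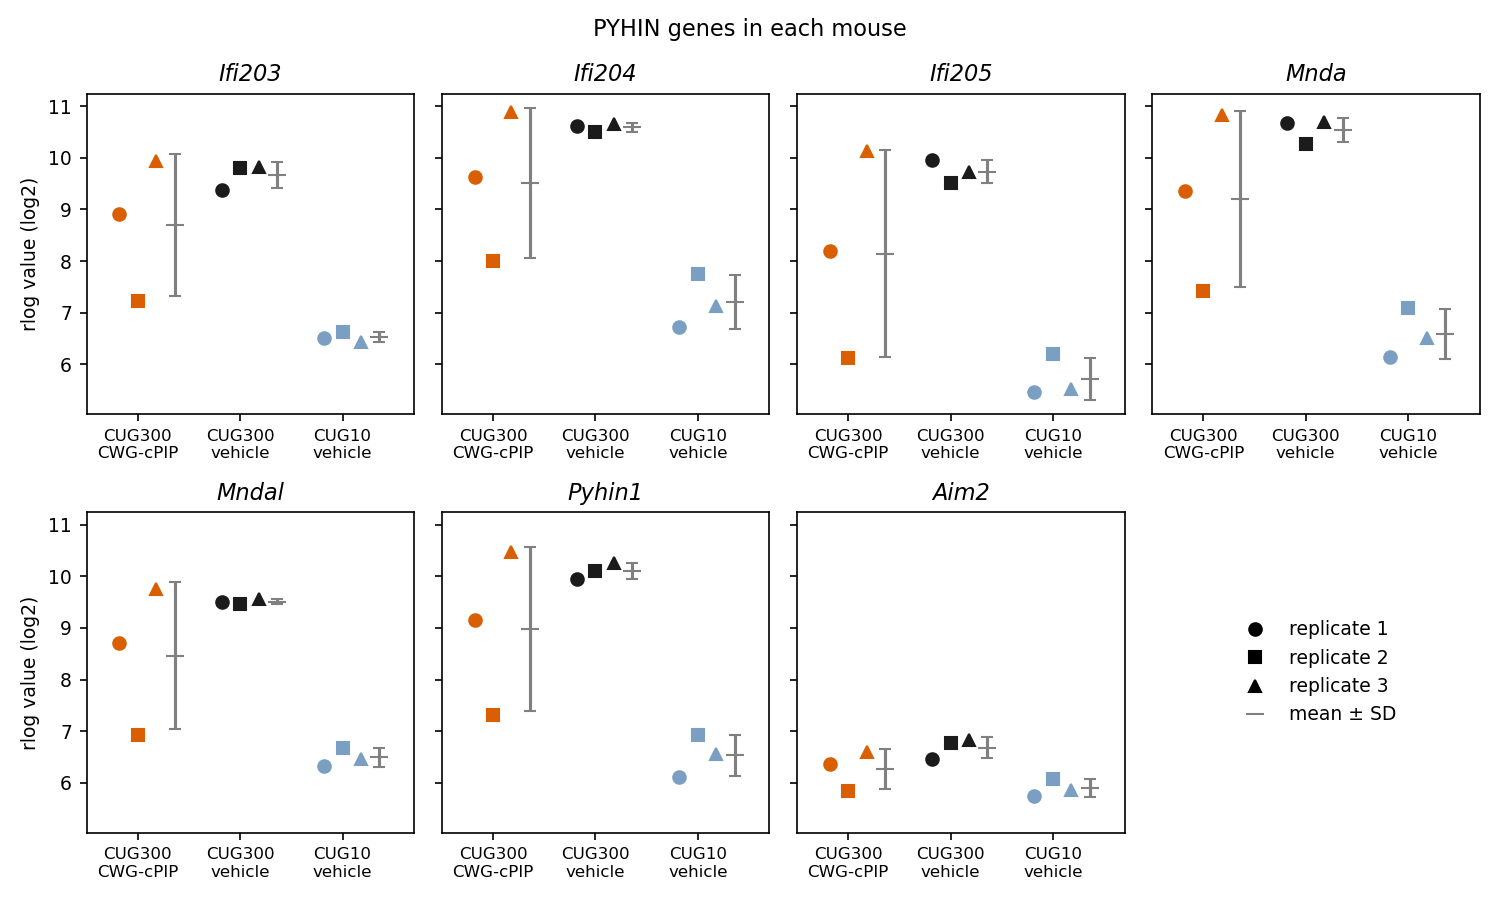
The rlog value (log2) of each of the 7 genes in each of the 9 mice, 1 panel per gene, with CUG300 mice treated with CWG-cPIP, CUG300 mice given vehicle and CUG10 mice given vehicle from left to right, the symbol giving the replicate and the grey bar the mean ± SD (n = 3). Treated replicate 3 is the highest of the 9 mice in every panel but that of Aim2, and treated replicate 2 is the lowest treated mouse in all 7.

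Subtracting the log2 length in kb of the longest coding transcript gives a rough level per length, on which genes can be set side by side. In CUG300 mice treated with CWG-cPIP, Mnda had the highest such level, 8.37 ± 1.71, Aim2 the lowest, 4.76 ± 0.39 (SD, n = 3), and the other 5 genes lay between 6.79 and 8.31, with overlap over the 3 mice between all neighbours in the order but Ifi203 and Aim2. In CUG300 mice given vehicle the order was Mnda (9.71 ± 0.23), Ifi204 (9.39 ± 0.09), Ifi205 (9.04 ± 0.23), Mndal (8.49 ± 0.05), Pyhin1 (8.32 ± 0.15), Ifi203 (7.75 ± 0.25) and Aim2 (5.18 ± 0.20). There the ranges of Mnda and Ifi204 overlapped, as did those of Mndal and Pyhin1, and the other neighbours in the order did not. In CUG10 mice Ifi204 came first (6.01 ± 0.51) and Aim2 last (4.39 ± 0.17), and every gene overlapped its neighbours in the order, Aim2 and Ifi203 (4.62 ± 0.10) included. These are levels with the estimated division of shared reads behind them.

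The contrast that chose the genes, CUG300 mice given vehicle minus CUG10 mice, gave log2 differences of 4.01 for Ifi205, 3.96 for Mnda, 3.57 for Pyhin1, 3.38 for Ifi204, 3.14 for Ifi203, 3.01 for Mndal and 0.79 for Aim2. On the rlog scale these are 16.1-fold for Ifi205 at the upper end and 1.73-fold for Aim2 at the lower end. The median over the 7 genes was 3.38, against −0.01 over all genes tested. All 7 were called higher by limma at an adjusted p under 0.05, beside 7.37% of all genes tested, and all 7 had no overlap between the groups in that direction, beside 18.2% of all genes. Since the genes were picked on this contrast, nothing is read from these counts. Leaving out any 1 of the CUG10 mice, or replicate 3 of the vehicle-treated CUG300 mice, left 0 of the 7 called, and also only 0 to 2 of the 14867 genes tested, against 1592 in either direction with all mice, while the differences themselves moved little (2.90 to 3.11 over all settings for Mndal and 3.74 to 4.22 for Mnda).

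With CWG-cPIP, the means of all 7 genes in CUG300 mice were lower than with vehicle, and no difference passed the test. The log2 differences, CWG-cPIP minus vehicle, were −1.58 for Ifi205 (95% interval −3.38 to 0.22), −1.34 for Mnda (−2.90 to 0.23), −1.13 for Pyhin1 (−2.57 to 0.31), −1.08 for Ifi204 (−2.43 to 0.27), −1.04 for Mndal (−2.31 to 0.22), −0.97 for Ifi203 (−2.20 to 0.26) and −0.42 for Aim2 (−0.87 to 0.04). Limma gave 0 of 7 called lower (adjusted p = 0.483 for each), beside 0% of all genes tested, and 0 of 7 at an unadjusted p under 0.05 (0.068 to 0.110), beside 3.6% of all genes. No member had all treated mice below all vehicle-treated mice, a pattern that 3.5% of all genes showed. The median difference was −1.08 over the 7 genes and −0.00319 over all genes tested. The intervals thus hold both no difference and differences larger than the mean one. The vehicle-treated mice in this comparison are the ones the genes were chosen on.

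The treated mean rests on 3 unlike mice. The SD over the treated mice was 1.37 to 2.01 for 6 of the genes and 0.39 for Aim2, against 0.05 to 0.25 over the vehicle-treated CUG300 mice and 0.10 to 0.51 over CUG10 mice. The fit takes 1 variance per gene for all groups, which these SDs do not bear out. Intervals of contrasts with treated mice may thus be too narrow and their p-values too small. The treated spread also enters the error of CUG300 vehicle minus CUG10 mice. For Ifi205 the standard error of that difference was 0.80 in this fit and 0.22 with only the groups compared. The median SD over all genes tested was lower in treated mice (0.144) than in vehicle-treated mice (0.218), so the spread of these genes was not shared by most genes. An SD over 1 in treated mice was seen in 6 of the 7 genes and in 1.56% of all genes tested, against 0 of the 7 and 0.256% of all genes in vehicle-treated mice. Without treated replicate 2 the log2 difference against vehicle shrank to −0.57 for Ifi205, −0.45 for Mnda and −0.23 for Ifi203. Without treated replicate 3 it was −2.58 for Ifi205, −2.15 for Mnda and −1.59 for Ifi203, and limma still called 0 of 7, beside 3 of all genes tested.

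The position of each treated mouse between the groups can be put as a return, the share of the distance from the CUG300 vehicle mean to the CUG10 mean, where 0 is the vehicle mean and 1 the CUG10 mean. Replicate 2 had returns of 0.77 to 1.07 over the 7 genes, replicate 1 had 0.24 to 0.41, and replicate 3 had −0.10 to 0.12. Within each mouse the 7 genes thus gave similar returns, while the 3 mice differed. The genes moved together and, Aim2 apart, share sequence, so the ranges are over genes and are not 7 separate measures of a mouse. The return is scaled by the distance on which the genes were chosen.

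Against CUG10 mice, CUG300 mice treated with CWG-cPIP had higher means of all 7 genes. The log2 differences, CWG-cPIP minus CUG10, were 2.62 for Mnda (95% interval 1.06 to 4.19), 2.44 for Pyhin1 (1.00 to 3.89), 2.42 for Ifi205 (0.62 to 4.22), 2.30 for Ifi204 (0.95 to 3.65), 2.17 for Ifi203 (0.94 to 3.40), 1.97 for Mndal (0.71 to 3.24) and 0.37 for Aim2 (−0.09 to 0.83). After adjustment over all genes, limma called 0 of 7 higher (adjusted p = 0.171 to 0.466), beside 0% of all genes tested. At an unadjusted p under 0.05 it gave 6 of 7, all but Aim2, beside 8.12% of all genes. All treated mice lay above all CUG10 mice in 5 of 7, all but Ifi205 and Aim2, beside 13.4% of all genes. Without treated replicate 2, 6 of 7 were called, beside 567 of all 14867 genes tested in either direction. The CUG10 mice in this comparison are also ones the genes were chosen on, for being low against CUG300 vehicle. These intervals and counts are therefore a description, and nothing is read from them.

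**Figure D2:**
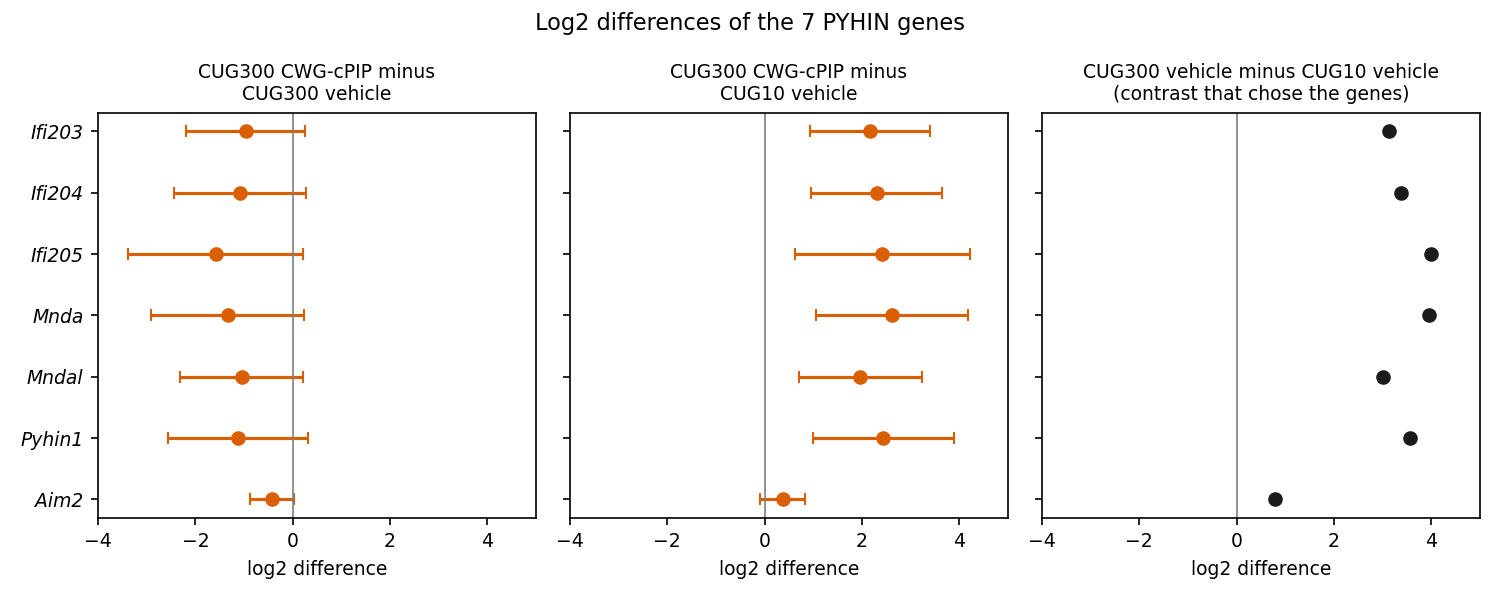
Log2 differences of the 7 genes for CUG300 mice treated with CWG-cPIP minus CUG300 mice given vehicle, for CWG-cPIP minus CUG10 mice, and for CUG300 vehicle minus CUG10 mice, with unadjusted 95% intervals from limma in the first 2 panels and none in the third, whose contrast chose the genes. The intervals against vehicle reach across 0 for all 7 genes, and those against CUG10 mice lie above 0 for all but Aim2.

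The 7 genes moved together from mouse to mouse. Over the 9 mice, Pearson's r was 0.982 to 0.999 for the 15 pairs without Aim2 and 0.938 to 0.949 for the 6 pairs with Aim2. After the group means were taken away it was 0.937 to 0.995 and 0.82 to 0.915 for the same pairs, a description of mice in which the treated group carries most of the spread and in which copies share reads. Differences inside a mouse were taken for a few pairs of members, as a description of proportions within the family. Ifi203 minus Mndal was 0.23 ± 0.05 in treated CUG300 mice, 0.16 ± 0.25 in CUG300 mice given vehicle and 0.03 ± 0.12 in CUG10 mice (SD, n = 3 each). Ifi204 minus Pyhin1 was as steady, at 0.53 ± 0.14 in treated mice, 0.49 ± 0.16 with vehicle and 0.68 ± 0.13 in CUG10 mice. Mnda minus Ifi205, the close copies, was 1.06 ± 0.32 in treated mice, 0.81 ± 0.13 with vehicle and 0.86 ± 0.16 in CUG10 mice. The pairs given next also hold Ifi205, whose separate level is among the least certain. Their vehicle and CUG10 values belong to the contrast that chose the genes. Ifi205 minus Mndal was −0.51, −0.82 and 0.37 in treated replicates 1, 2 and 3, 0.45, 0.05 and 0.17 in vehicle-treated CUG300 mice, and −0.87, −0.49 and −0.94 in CUG10 mice. Treated replicate 3 thus lay within the range of vehicle-treated mice, and replicates 1 and 2 within that of CUG10 mice, although the returns of replicate 1 were nearer the vehicle mean. Ifi205 minus Aim2 put replicate 1 between the ranges of the groups, replicate 2 just above that of CUG10 mice and replicate 3 just above that of vehicle-treated mice, with 1.83, 0.27 and 3.54 in the treated mice, 3.50, 2.73 and 2.90 in the vehicle-treated mice, and −0.28, 0.11 and −0.34 in CUG10 mice.

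Other PYHIN genes were looked up by name, and 5 had a row, of which BC094916 was given no position by the annotation used. AI607873 (now Ifi207) had 7.81, 6.52 and 8.96 in treated CUG300 mice, 8.39, 8.95 and 8.91 with vehicle, and 5.50, 6.18 and 5.58 in CUG10 mice. Pydc3 (now Ifi208) had 7.06, 5.81 and 8.27 with CWG-cPIP, 7.63, 8.11 and 8.02 with vehicle, and 4.98, 5.26 and 5.14 in CUG10 mice. Pydc4 (now Ifi213) had 6.12, 4.79 and 7.11 with CWG-cPIP, 6.89, 6.74 and 7.17 with vehicle, and 4.45, 4.70 and 4.59 in CUG10 mice. These genes showed the same order of the treated mice as the 7. BC094916 was low throughout, with 3.45, 3.11 and 3.82 in treated mice, 3.73, 3.66 and 3.86 with vehicle, and 3.08, 3.08 and 3.12 in CUG10 mice. Ifi202b was below the minimum, at −0.70 to −0.58 in all 9 mice. In CUG300 mice given vehicle, limma called 4 of the 4 tested genes higher than in CUG10 mice, beside 7.37% of all genes, in the contrast that chose the 7 genes. BC094916 passed the minimum mean, 3.32 in log2, only through the CUG300 mice, as its CUG10 mean was 3.09. Nothing is read from its call. The log2 differences were 3.00 for AI607873, 2.79 for Pydc3, 2.35 for Pydc4 and 0.66 for BC094916. With CWG-cPIP against vehicle none of the 4 was called (−0.99, −0.87, −0.93 and −0.29 in the same order, adjusted p = 0.483 each), nor at an unadjusted p under 0.05. Of all genes tested, limma called 0% in that comparison, and 3.6% were lower at an unadjusted p under 0.05. Of the 4 other PYHIN genes with a promoter window, 3 also held the doubled GAAA (AI607873, Pydc3 and Pydc4), and Ifi202b did not but held the second motif.

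Genes around the stretch did not all follow it. Within 1000000 bases on either side, 41 other genes were listed and 12 were tested, with a median log2 difference of 0.13 between CUG300 mice given vehicle and CUG10 mice. Cadm3, a neuronal adhesion molecule whose span overlaps that of Aim2, was the nearest tested gene on one side, and had −0.23 in that contrast (adjusted p = 0.234 by limma). Fmn2, an actin nucleator 470 kb past the other end, had −0.42 (adjusted p = 0.18). Limma called 3 of the 12 higher, beside 7.37% of all genes, and 0 lower: Slamf9 (1.78), Tagln2 (1.60) and Slamf8 (1.72), which lie 872, 844 and 760 kb before Aim2. Slamf8 and Slamf9 encode receptors of leukocytes, and Tagln2 an actin-binding protein. With CWG-cPIP against vehicle none of the 12 passed the test, beside 0 of all genes tested, and Slamf9, Tagln2 and Slamf8 had −0.72, −0.69 and −0.50.

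**Figure D3:**
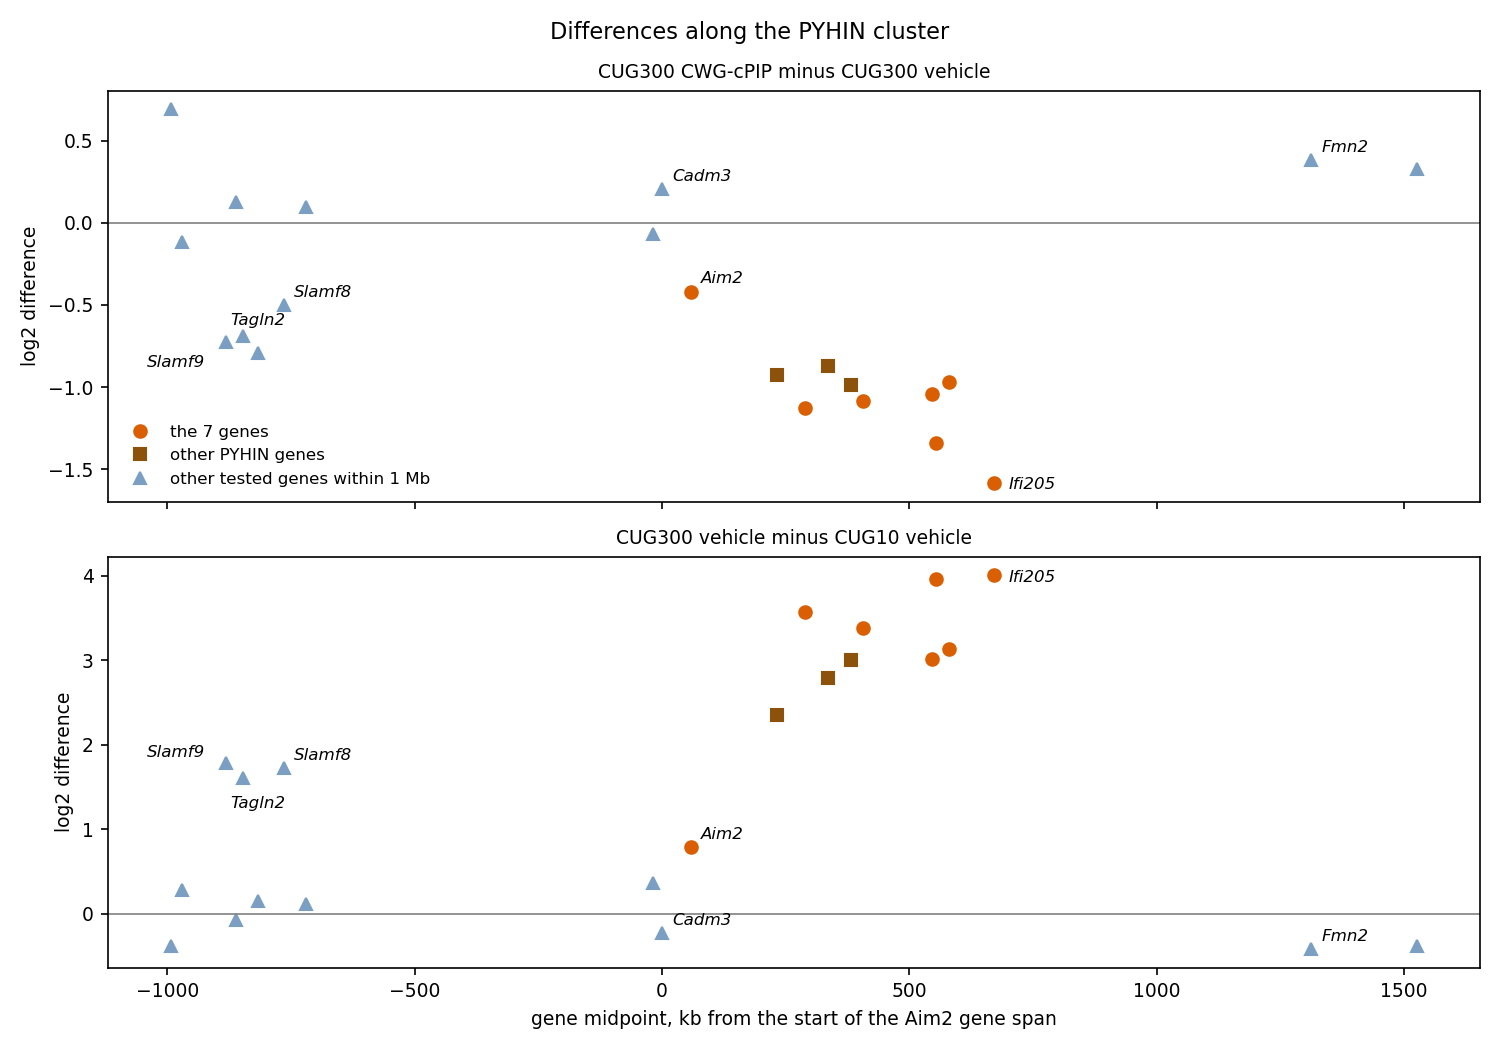
Log2 difference of each tested gene against the position of its midpoint in kb from the start of the Aim2 span, for CUG300 mice treated with CWG-cPIP minus vehicle above and for CUG300 vehicle minus CUG10 mice below, with the 7 genes as circles, the 3 placed other PYHIN genes as squares and the 12 tested neighbours as triangles. The PYHIN genes past Aim2 lie between 2.35 and 4.01 in the lower panel, the tested neighbours at the edges of the stretch lie near 0, and a group before the stretch lies at 1.60 to 1.78.

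The genes most like the family were found by Pearson's r, over the 9 mice, to the mean of the 7 genes after each was centred. They were Ms4a4c (0.999), Dhx58 (0.998), Oasl1 (0.998), Tor1aip2 (0.997) and Sp110 (0.997). Ms4a4c, a membrane protein gene of myeloid cells, had 8.79, 6.87 and 10.5 in treated CUG300 mice, 10.0, 9.95 and 10.2 with vehicle, and 5.87, 6.48 and 6.05 in CUG10 mice, below Mnda in each of the 9 mice. Dhx58 encodes the RNA sensor LGP2 and Oasl1 a member of the oligoadenylate synthetase family. Such likeness was common: 625 of the tested genes (4.2%) had an r of at least 0.95 and 112 (0.753%) of at least 0.99.

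In a list of inflammasome genes, which holds partners and products of AIM2 and also Casp4, Nlrp3 and Nlrc4 of other inflammasomes, limma called 5 of 8 genes higher in vehicle-treated CUG300 mice than in CUG10 mice (median log2 difference 1.59, against −0.01 over all genes). Over all genes tested 7.37% were called higher in that contrast, the share to set beside this and each later list count in it. With CWG-cPIP against vehicle limma called 0 of all 14867 genes tested, so a list could only count 0 there. Pycard, the adaptor, had 7.51, 6.81 and 8.12 in treated CUG300 mice, 8.37, 8.0 and 8.22 with vehicle, and 6.45, 6.97 and 6.27 in CUG10 mice. Casp1, the protease of the complex, had 7.03, 6.39 and 7.97 with CWG-cPIP, 7.85, 7.62 and 7.74 with vehicle, and 5.82, 6.12 and 5.72 in CUG10 mice. Casp4, an inflammatory caspase, had the largest difference of the list, 2.47, against 0.79 for Aim2. With CWG-cPIP against vehicle, 0 of 8 were called (median −0.65), and Pycard was at −0.72 and Casp1 at −0.61.

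A mixed list for the other route of cytosolic DNA sensing, through cGAS and STING, also holds Zbp1, a separate sensor. Of its 10 genes, 5 were called higher in CUG300 mice given vehicle (median 1.13) and 0 with CWG-cPIP against vehicle (median −0.52). The 5 were Mb21d1, Tmem173, Zbp1, Trex1 and Samhd1, and Tbk1 (0.22) and Irf3 (0.17) were among those that did not pass. Mb21d1, which encodes cGAS, had 6.11, 5.65 and 6.52 in treated CUG300 mice, 6.44, 6.55 and 6.69 with vehicle, and 5.38, 5.49 and 5.64 in CUG10 mice. Tmem173, which encodes STING, had log2 differences of 1.33 between vehicle-treated CUG300 and CUG10 mice and −0.57 with CWG-cPIP against vehicle, and Zbp1, a sensor of Z-form nucleic acid, had 3.54 and −1.10. Of 12 interferon receptors and signal transducers, 7 were called higher in CUG300 mice given vehicle (median 0.76) and 0 with CWG-cPIP against vehicle (median −0.37). Ifnar1, a chain of the type I interferon receptor, was at 0.12 in the first of these contrasts and did not pass, Ifnar2, its partner chain, was at 0.80, and Irf7, a transcription factor of the interferon response, was at 3.59. The values of Irf7 were 11.8, 9.99 and 12.6 in treated mice, 12.4, 12.3 and 12.7 with vehicle, and 8.54, 9.40 and 8.72 in CUG10 mice. None of these lists had a gene called between treated CUG300 and CUG10 mice, beside 0% of all genes tested called higher there, so nothing is read from it.

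Most markers of blood-borne cells moved with the 7 genes. Of 10 monocyte and macrophage markers, 6 were called higher in vehicle-treated CUG300 mice than in CUG10 mice (median 2.27), and the list mean correlated with that of the 7 genes at r = 0.989 over the 9 mice, a description. Such an r was not particular to these markers: it was 0.989 for the inflammasome list, 0.991 for DNA sensing and 0.992 for interferon receptors and signal transducers. It was 0.726 for microglia and 0.656 for endothelial markers. Summed on the linear scale, the monocyte and macrophage markers reached 1306 to 8272 in treated CUG300 mice, 5890 to 8850 with vehicle and 746 to 1681 in CUG10 mice. Ly6c2, which marks inflammatory monocytes, had 9.24, 7.09 and 10.8 in treated CUG300 mice, 10.2, 10.5 and 11.2 with vehicle, and 5.98, 6.31 and 5.97 in CUG10 mice. Ccr2, their chemokine receptor, had 7.20, 6.20 and 8.20 with CWG-cPIP, 7.71, 8.11 and 8.71 with vehicle, and 5.61, 5.39 and 5.07 in CUG10 mice. One of these markers, Ms4a4c, is also the gene most like the family. Mrc1 and Cd163, markers of macrophages of tissue and brain borders, did not follow: neither was called in CUG300 mice given vehicle, and both means were higher with CWG-cPIP than with vehicle (log2 differences 0.14 and 0.25), with replicate 2 the highest treated mouse. Of 10 T and NK cell markers, 7 were called higher in CUG300 mice given vehicle (median 1.29), beside 7.37% of all genes. Sums over these markers were 257 to 998 in treated mice, 674 to 954 with vehicle and 211 to 287 in CUG10 mice. Gzmb, a cytotoxic granule protease, was at 3.20, and Cd3e and Cd3d, T cell receptor subunits, at 0.75 and 1.55, of which Cd3e did not pass. Of 6 B cell markers 3 were tested and 1 was called, Cd79a (1.17), and r of that list to the 7 genes was 0.789. No marker of these lists was at 0 in all mice, and the part of such cells in the levels of the 7 genes was not tested.

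Microglia markers moved less. Of 10, 2 were called higher in CUG300 mice given vehicle (median 0.16), Tmem119 among them, and their sums were 8346 to 9916 in treated mice, 10077 to 11147 with vehicle and 7123 to 8897 in CUG10 mice. Cx3cr1 and P2ry12, which mark resident microglia, had log2 differences of 0.17 and −0.34 and did not pass. Aif1, which macrophages express too, was at 1.63. Of 6 astrocyte markers Gfap (1.21) and Aqp4 (0.91) were called, and 0 of 8 neuron (median −0.31), 0 of 6 oligodendrocyte (−0.59) and 0 of 6 endothelial markers (0.19) were. Within these last lists, Rbfox3 and Snap25 were at −0.24 and −0.42, Mbp at −0.62, and Cldn5 and Pecam1 at 0.45 and 0.69.

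Choroid plexus markers differed between mice in another way. Their sums were 1457 to 1925 in treated CUG300 mice, 16688 to 63976 with vehicle and 1464 to 30531 in CUG10 mice, and r to the mean of the 7 genes was 0.232 over the 9 mice. Ttr, the transthyretin gene of that epithelium, had 10.3, 9.51 and 10.2 in treated mice, 15.9, 13.9 and 14.7 with vehicle, and 9.78, 13.2 and 14.7 in CUG10 mice, and Kl, also of that epithelium, had 8.70, 8.46 and 8.47, then 10.2, 9.48 and 10.1, then 8.42, 9.16 and 10.4 in the same order. Ttr had the highest values of the list and weighs most in these sums. In the list mean all 3 treated mice were alike and low (6.44, 6.51 and 6.43), while they were far apart in the PYHIN genes. Otx2 of the list did not follow, with 6.42, 7.21 and 5.87 in treated mice and 7.76, 6.78 and 7.12 with vehicle. With the choroid plexus mean of each mouse as a covariate, an alternative added after the data had been seen, limma called 0 of 7 genes in CUG300 mice given vehicle, beside 1 of all 14867 genes tested, with log2 differences of 3.95 for Ifi205 and 3.80 for Mnda (adjusted p = 0.102 and 0.0973).

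**Figure D4:**
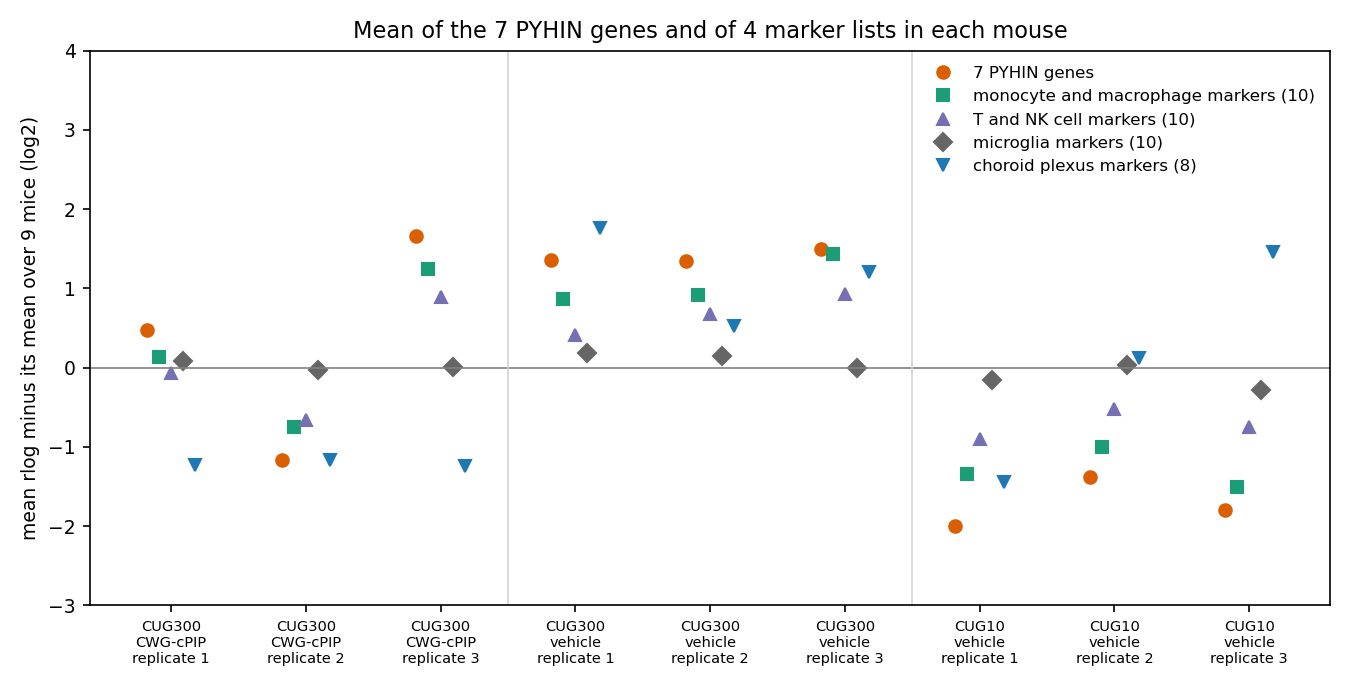
Mean rlog value of the 7 PYHIN genes and of 4 marker lists in each mouse, each minus its own mean over the 9 mice (log2), with treated CUG300 mice left, vehicle-treated CUG300 mice in the middle and CUG10 mice right. The monocyte and T and NK cell points run with the PYHIN points in all 3 groups, the microglia points stay near 0, and the choroid plexus points are alike and low in the 3 treated mice.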

How the data were processed

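Hippocampal RNA of 9 mice was sequenced as read pairs of 150 nt. Per the labels and the methods, Trim Galore 0.6.6 was used for trimming, STAR 2.7.9a for alignment to GRCm38/mm10 and RSEM 1.3.3 for gene counts. What the authors deposited are rlog (regularized logarithm) values, log2, made in DESeq2 1.36.0. The annotation, the options of that step and the use of strand are not stated. No counts were at hand, so depth is unknown and no count model was used.

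Of 24411 genes, 5175 stood at 0 in every mouse. The 14867 genes whose mean reached 10 on the linear scale were tested with limma 3.58.1 in R 4.3.3, with 1 mean per group, 1 variance per gene over all 9 mice, a variance trend (3.03 prior degrees of freedom) and Benjamini-Hochberg adjustment within each of 3 comparisons. A call is an adjusted p under 0.05. The procedure was tested on simulated data, and no outcome of that test is given here. In these mice the PYHIN genes moved together and their SDs differed between groups. The simulation is therefore not taken as a check of the calls for these genes. Labels do not say that mice of a group came from separate litters, and p-values measure the spread between these mice.

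The 7 genes, the gene lists and the tests were chosen with earlier results of these data known, and older names of other PYHIN genes were matched after the files had been seen. Genes named are the 7, every other PYHIN gene listed, the first 2 written of each list with its called gene of largest change in CUG300 mice given vehicle, the 5 genes most alike (predicted names left out), the nearest tested gene on each side, and called neighbours where there were at most 5. Tmem119, Mrc1, Cd163, Nlrp3, Nlrc4, Trex1, Samhd1, Tbk1, Irf3 and Otx2 were named after their values were seen. A gene that this rule names is not reported here. Symbols turned into dates (27, of which 23 tested) were kept and not named. Names and start sites came from RefSeq GRCm38.p6, and transcripts and spans from GENCODE, both of the authors' build. Replicate numbers are not described as pairing the mice, and the main fit did not pair them. Over 9 pairs of same-numbered mice, deviations from group means correlated at −0.50 to 0.41, with 3 over 0.1. Between CWG-cPIP and vehicle r was −0.18, 0.40 and 0.41 for replicates 1, 2 and 3. Differently numbered mice were not compared, so these values cannot decide if the numbers stand for pairs. Alternatives were median centring, quantile normalization, no filter, a mean of at least 100, limma without trend and robust, only the groups compared, a replicate block and leaving out each mouse.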

Additional observations from a re-analysis of the deposited data

How the results depend on the processing

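No direction of any of the 7 genes turned in any of the 3 comparisons under any alternative run. The count called higher in vehicle-treated CUG300 mice than in CUG10 mice was 7, and 6 with quantile normalization, without a filter, with a mean of at least 100 (where Aim2 was not tested) and with the replicate block. Leaving out 1 mouse gave 0 to 7. It was 0 without any 1 CUG10 mouse or without CUG300 vehicle replicate 3, where 0 to 2 of all 14867 genes were called, and 0 with the choroid plexus mean as a covariate, where 1 was, against 1592 with all mice and no covariate. The covariate was added after the data had been seen. With CWG-cPIP against vehicle the count was 0 under every setting, the replicate block included. Against CUG10 mice the CWG-cPIP count was 0, with a range of 0 to 6 when 1 mouse was left out, 6 coming without CWG-cPIP replicate 2, where 567 of all genes were called. For single genes, 41 of 375 alternative values lost the call, 6 gained it and 328 kept their side of the threshold. All losses were in CUG300 vehicle against CUG10 mice, the only comparison with calls to lose. There Aim2 lost its call in 10 of 17 alternatives, Ifi205 in 6 of 18 and each other gene in 5 of 18. The cause of these shifts was not tested. With 3 mice per group and an unknown depth, differences of the size seen with CWG-cPIP could not be told from no difference.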
